A study of Homo sapiens with 4 samples.

Results

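RNA-seq of prostate cancer cells with and without DDX52 knockdown was examined for 53 genes that encode the proteins of DNA replication origins and forks. DDX52 encodes a DEAD-box RNA helicase. The members were taken by gene symbol from a list of replication genes, and all 53 were matched to an Ensembl identifier among the 60671 identifiers measured. The cells were 22RV1 and PC3, both established prostate carcinoma lines. Each line was infected with a lentivirus carrying a short hairpin RNA, either against DDX52 (shDDX52) or with a control sequence (shCON), and stable transformants were selected with puromycin. Every group thus carried a lentiviral hairpin, and DDX52 was targeted by a single hairpin sequence. There was 1 library for each of the 4 groups, so no difference below has a replicate check, the error of a single value is unknown, and no p-value was computed. Levels are given in TPM, a transcript's share of its library scaled to a fixed total, which is corrected for transcript length and can be compared between genes of a library. TPM keeps no sequencing depth, so no confidence interval is given.

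In the 22RV1 libraries, DDX52 was 4.88 TPM with shCON and at 24.6% of that with shDDX52, and in the PC3 libraries it went from 9.20 to 2.07 TPM, or 22.5%. It was therefore lower in the shDDX52 library of each line. The labelled lines were checked with markers. KLK2 and KLK3, which encode secreted proteases of luminal prostate cells, were between 4.51 and 32.6 TPM in the 22RV1 libraries and listed at 0 in both PC3 libraries, and of the other luminal genes FOLH1 was at most 0.26 TPM and HOXB13 at least 34.1 TPM in PC3. CAV1, ANXA1 and CD44, markers used for PC3, were at least 94.3 TPM in PC3, where 22RV1 had at most 0.45 TPM of the former 2 and at most 17.1 TPM of CD44, and VIM was 66.7 TPM in PC3 shDDX52 and at most 12.6 TPM elsewhere. The basal keratin KRT5 was at most 0.40 TPM in all 4 libraries. The share of TPM on rRNA genes was 1.21% in 22RV1 shCON but 0.0872% after knockdown, whereas PC3 went from 0.0923% with shCON to 3.13% with shDDX52.

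DNA replication begins where the origin recognition complex sits on DNA and, with CDC6 and CDT1, loads the ring-shaped MCM2 to MCM7 helicase in G1 phase. The kinase CDC7 with its partner DBF4, and the factors CDC45 and GINS, turn the loaded ring into an active helicase in S phase, and polymerases, the sliding clamp PCNA and its loader then copy both strands. Many of these genes are transcribed by E2F factors as cells pass from G1 into S phase, so their mRNAs are widely used as signs of proliferation. In a bulk library, fewer cells in S phase and less of an RNA per cell cannot be told apart.

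The replication genes were expressed in all 4 libraries and, like genes in general, differed more between the cell lines than with the hairpin. Genes were compared where either library of a pair reached 1 TPM. Of these, 32.2% were at least 1.5-fold lower and 29.3% higher in PC3 shCON than in 22RV1 shCON. With the hairpin, 8.47% were lower and 5.61% higher by that fold in 22RV1, and 9.84% and 8.95% in PC3. All 53 members had at least 1 TPM in every library, with values from 1.79 to 504 TPM, and 45 had at least 5 TPM throughout. Summed over the members, 22RV1 had 4005 TPM with shCON and 3782 with shDDX52, while PC3 had 2303 and 2207 TPM. The members thus held 0.405% of the 22RV1 shCON library and 0.233% of the PC3 shCON library. MKI67, the gene of the proliferation marker Ki67, was 46.4 and 42.7 TPM in the 22RV1 libraries and 25.2 and 28.2 TPM in the PC3 libraries, shCON first. MYC, which encodes the growth-promoting factor c-Myc, was 169 and 147 TPM in 22RV1 and 192 and 122 TPM in PC3.

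**Figure D1:**
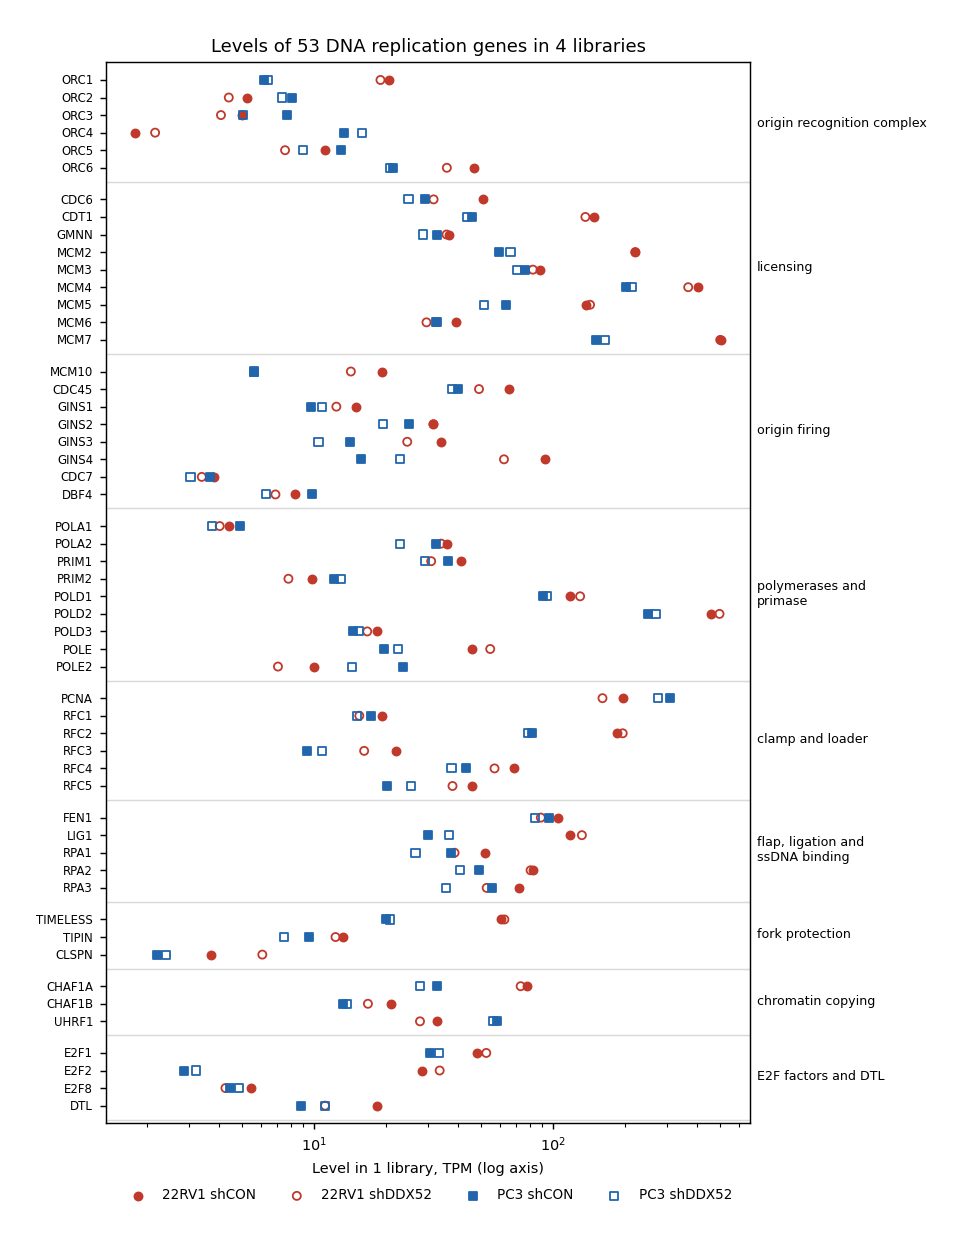
Level of each of the 53 replication genes (rows, grouped by role) in TPM on a log axis, with 1 point per library and no error bars because each group has 1 library. Filled symbols are shCON and open symbols shDDX52. For most genes the circles of 22RV1 lie to the right of the squares of PC3, while the filled and open symbols of a line lie close together.

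With shDDX52, 41 of the 53 members were lower in 22RV1 and 29 of 53 were lower in PC3. Changes are given as the log2 ratio, log2((TPM shDDX52 + 1) / (TPM shCON + 1)), and the added 1 draws the ratio of low values toward 0. Among all genes that reached 1 TPM with either hairpin in a line, 58.8% had a log2 ratio below 0 in 22RV1 and 53.5% in PC3. The median log2 ratio of the members was −0.21 in 22RV1, against −0.076 for the 14438 genes tested, and −0.061 in PC3, against −0.036 for 14262 genes. In 22RV1, the middle of the list (the 25th to the 75th percentile) ran from −0.37 to −0.012, and in PC3 from −0.26 to 0.097. The shift in 22RV1 was thus larger than that of all genes, and that in PC3 lay close to it. The longest coding transcripts of the members had a median GC content of 45.9%, against 50.3% for the genes tested in 22RV1. Of protein-coding genes grouped by GC content, the groups around 44.8% and 46.3% had 22RV1 medians of −0.23 and −0.21. These lie close to the median of the members, and the part of GC content was not tested.

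Few members changed strongly. At least 1.5-fold lower with shDDX52 were 2 members in 22RV1, CDC6 and DTL, where 8.47% of all genes tested were that much lower, and 2 members in PC3, POLE2 and RPA3, where the background was 9.84%. At least 1.5-fold higher was 1 member in 22RV1, CLSPN, with a background of 5.61%, and 0 in PC3, with a background of 8.95%. These shares of the list, 3.77% lower in each line, were below those of all genes, and 0 members reached a 2-fold change in either line, where 2.86% of all genes were lower and 2.24% higher by 2-fold in 22RV1, and 3.44% and 2.86% in PC3. Among the genes whose higher TPM lay within the range of the members, the shares were close to these backgrounds, with 7.54% lower and 4.75% higher by 1.5-fold in 22RV1, 8.41% higher in PC3, and 59.7% of genes below 0 in 22RV1. Within 1.2-fold of the control were 32 members in 22RV1, or 60.4% where all genes had 56.1%, and 36 in PC3, or 67.9% where all genes had 49.0%. TPM were also rescaled to nuclear protein-coding genes, which leaves out rRNA and other noncoding genes and all mitochondrially encoded genes. In PC3 this turned the median to 0.067 with 23 of 53 members lower, and moved the median of all genes to 0.087. It left 0 members at least 1.5-fold lower and 1 higher (GINS4) in PC3. A pseudocount of 0.1 gave 4 members at least 1.5-fold lower in PC3. In 22RV1, centring each log2 ratio on genes of similar transcript GC content, an alternative chosen after seeing the data, gave a median of −0.049 with 33 of 53 members lower and 0 members at least 1.5-fold lower.

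**Figure D2:**
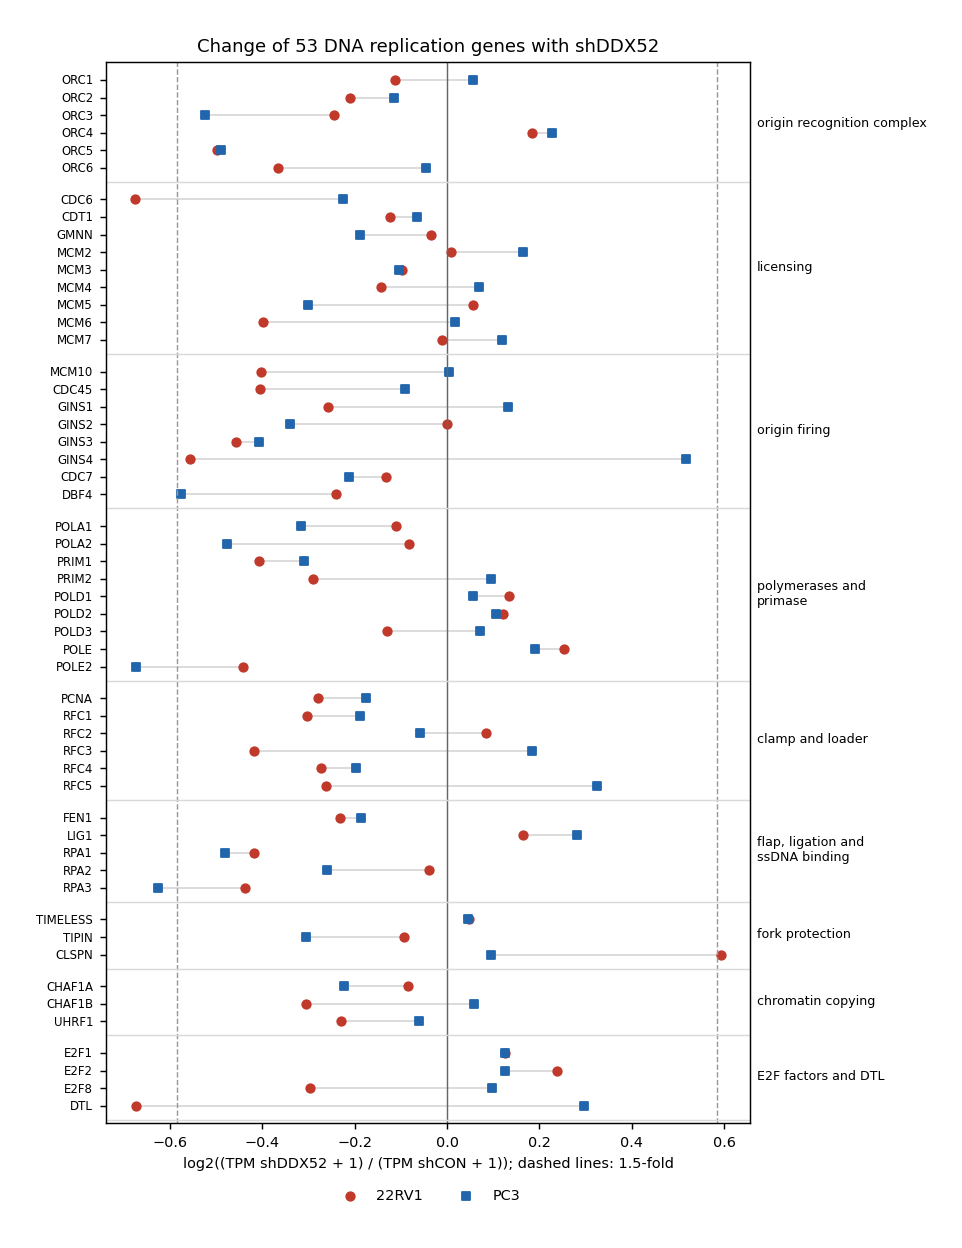
The log2 ratio of shDDX52 over shCON for each of the 53 replication genes (rows, grouped by role), with a circle for 22RV1 and a square for PC3, each from 1 pair of libraries. The dashed lines mark a 1.5-fold change. CDC6 and DTL in 22RV1 and POLE2 and RPA3 in PC3 lie left of the lower dashed line, and CLSPN in 22RV1 lies right of the upper one.

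Directions were shared between the lines for most members, though 32 members in 22RV1 and 36 in PC3 lay within 1.2-fold of control. The counts of shared directions use the TPM as deposited and were not recomputed under the alternatives. With shDDX52, 27 members were lower in both lines, where 32.5% of 12175 genes tested in both lines were, and 10 were higher in both, with a background of 18.5%. Lower in 22RV1 and higher in PC3 were 14 members, with a background of 27.4%. The opposite held for 2 members, MCM5 and RFC2, with a background of 21.4%. Across the 53 members, Spearman's rho between the log2 ratios of the lines was 0.27, against 0.012 across the 12175 genes. These coefficients describe genes of the same 4 libraries, not replicates, and genes share features such as base composition. At least 1.2-fold lower in both lines were 6 members, ORC5, GINS3, PRIM1, POLE2, RPA1 and RPA3. This is 11.3% of the list beside 7.61% of all genes. Centred on genes of similar GC content, the 22RV1 log2 ratios of GINS3 (−0.25), POLE2 (−0.22) and RPA3 (−0.22) fell short of 1.2-fold. That of ORC5 was −0.31, and those of PRIM1 and RPA1 are not given. No member was at least 1.2-fold higher in both, where 3.66% of all genes were. By 1.5-fold, 0 members were lower in both, with a background of 1.18%, and 0 were higher in both, with a background of 0.706%.

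The control libraries differed in the same direction for most of the list. In PC3 shCON, 43 of the 53 members were lower than in 22RV1 shCON, where 52.3% of the 15727 genes tested were. The median log2 ratio of PC3 shCON over 22RV1 shCON was −0.58, against −0.067 for all genes tested. At least 1.5-fold lower in PC3 were 26 members, 49.1% of the list, with a background of 32.2%. At least 1.5-fold higher in PC3 were 4 members, ORC4, POLE2, PCNA and UHRF1, which is 7.55% of the list, with a background of 29.3%. At least 2-fold lower were 17 members and at least 2-fold higher were 2, with backgrounds of 21.3% and 19.9%. Among genes within the members' range of TPM, 51.9% were lower in PC3, 31.7% by at least 1.5-fold, and 29.5% were higher by that fold. The libraries of the lines differ in line, culture and library at once, and these cannot be told apart. The median stayed below 0 under each of the 7 alternatives run, between −0.66 and −0.51. Centred on genes of similar GC content, PCNA (0.56), POLD2 (−0.57) and E2F1 (−0.40) fell short of 1.5-fold, and CLSPN (−0.65) passed it.

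**Figure D3:**
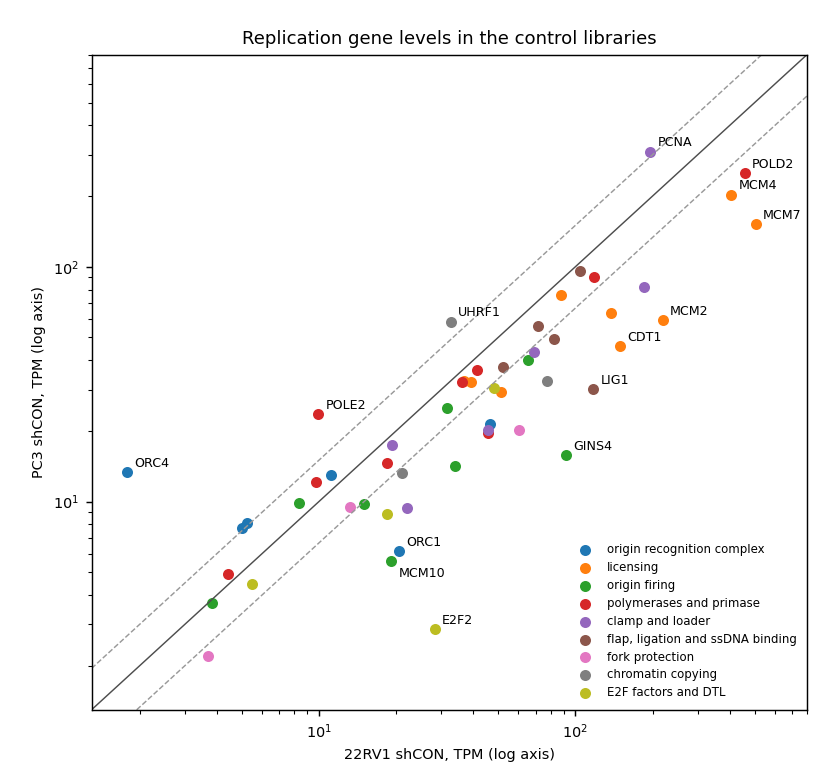
Level of the 53 replication genes in PC3 shCON against 22RV1 shCON, in TPM on log axes, coloured by role, with 1 library per axis. The solid line marks equal levels and the dashed lines a 1.5-fold difference of the TPM. On the log2(TPM + 1) scale 26 members are at least 1.5-fold lower in PC3, among them E2F2, GINS4, LIG1, MCM2 and MCM7, and 4 are at least 1.5-fold higher.

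In the origin recognition complex, ORC1 to ORC5 had at most 20.6 TPM in any library, below each of the 9 licensing genes. ORC6, its smallest subunit, was the highest of the 6 in every library, with 46.6 and 36.0 TPM in 22RV1 and 21.5 and 20.8 TPM in PC3, shCON before shDDX52 as in the pairs that follow. ORC4 was 1.79 and 2.17 TPM in the 22RV1 libraries and 13.4 and 15.8 TPM in the PC3 libraries, shCON first. This made ORC4 the lowest subunit in 22RV1, 26.1-fold below ORC6 in shCON, and the next after ORC6 in PC3, 7.47-fold above its 22RV1 level by the TPM of the control libraries. ORC4 has exons that overlap those of ACVR2A and MBD5 on the opposite strand. ORC1, the subunit whose protein is cycle-regulated, went the other way, with 20.6 and 19.0 TPM in 22RV1 and 6.16 and 6.44 TPM in PC3.

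By the TPM as deposited, ORC5 was lower with shDDX52 by almost the same step in each line. It was 11.1 and 7.58 TPM in 22RV1, which is 68.2% of control, and 12.99 and 8.97 TPM in PC3, which is 69.1% of control. The steps were less alike under other settings. Centred on genes of similar GC content, the log2 ratios of ORC5 were −0.31 in 22RV1 and −0.45 in PC3. With nuclear protein-coding scaling they were −0.49 and −0.38. ORC3 was 5.03 and 4.09 TPM in 22RV1 and 7.71 and 5.06 TPM in PC3, with log2 ratios of −0.24 and −0.52. ORC2 was 5.26 and 4.41 TPM in 22RV1 and 8.09 and 7.39 TPM in PC3. ORC2, ORC3, ORC4 and ORC5 were therefore higher in PC3 shCON than in 22RV1 shCON, and ORC1 and ORC6 lower.

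Among the licensing factors, CDC6 showed the largest difference with the hairpin in 22RV1. CDC6, the ATPase that joins ORC to load the MCM ring, was 51.2 and 31.7 TPM in 22RV1 and 29.3 and 24.9 TPM in PC3. The log2 ratio of CDC6 came to −0.67 for 22RV1 and −0.23 for PC3, and the former was −0.46 after centring on genes of similar GC content. CDC6 spans chr17:40287633-40304657 on the plus strand in GENCODE 29 (GRCh38). CDT1, its partner in loading, was 149 and 136.5 TPM in 22RV1 and 45.9 and 43.8 TPM in PC3. Geminin, the inhibitor of CDT1 encoded by GMNN, had log2 ratios of −0.035 and −0.19. Both CDT1 and GMNN thus stayed within 1.2-fold of control in each line.

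Most MCM ring genes were abundant and within 1.2-fold of control. MCM7 was 504 and 499.9 TPM in 22RV1, the highest level of any member there, and 152 and 165 TPM in PC3. MCM2 was 219 and 221 TPM in 22RV1 and 59.2 and 66.4 TPM in PC3. Both genes were over 3-fold lower in the PC3 control, with ratios of 22RV1 shCON to PC3 shCON of 3.32 for MCM7 and 3.70 for MCM2. MCM7 overlaps exons of AP4M1, and MCM2 those of TPRA1 and of AC023593.1, all on the opposite strand.

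The proteins of the ring assemble in equal numbers, but the mRNA levels of the subunits were unequal. MCM6 was the lowest in all 4 libraries, at 39.3 and 29.6 TPM in 22RV1 and 32.3 and 32.7 TPM in PC3, and the highest subunit exceeded it 12.8-fold in 22RV1 shCON and 6.27-fold in PC3 shCON. The spread between subunits was wider in 22RV1, where MCM2, MCM4, MCM5 and MCM7 were all at least 1.5-fold higher, while MCM3 and MCM6 were within 1.5-fold of PC3. With shDDX52, MCM6 had the largest log2 ratio of the ring in 22RV1, −0.40, and MCM5 in PC3, −0.30. The other log2 ratios of the ring lay between −0.14 and 0.16.

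The factors that fire the origin all had log2 ratios below 0 in 22RV1 shDDX52, 8 of 8 with a median of −0.33, where 58.8% of all genes were below 0. GINS2 was 31.6 TPM in both libraries, and the transcripts of the 8 held 39.1% to 51.4% GC. CDC45, GINS2, GINS3 and GINS4 lay above 45.9% GC and the others below it. Of protein-coding genes tested, 74.3% at or below 45.9% GC were below 0, and 51.1% of those above it. In PC3, 5 of the 8 were lower, where 53.5% of all genes were. MCM10 and CDC45, which help to activate the ring, had log2 ratios of −0.40 and −0.41 in 22RV1 and of 0.0044 and −0.092 in PC3.

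GINS4, a subunit of the GINS part of the active helicase, moved in opposite directions in the lines. It was 92.1 and 62.4 TPM in 22RV1, but 15.7 and 23.0 TPM in PC3. The PC3 shDDX52 library was at 146% of its control and the 22RV1 shDDX52 library at 67.7%. In the controls, GINS4 was 5.86-fold higher in 22RV1. GINS4 overlaps 2 antisense genes of GENCODE 29.

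GINS3, another subunit, was lower with the hairpin in both lines, with 34.1 and 24.6 TPM in 22RV1 and 14.2 and 10.5 TPM in PC3. This is 72.1% of control in 22RV1 and 73.7% in PC3. DBF4, which activates the kinase CDC7, was 8.34 and 6.91 TPM in 22RV1 and 9.87 and 6.29 TPM in PC3. Its log2 ratio of −0.58 in PC3 lay just inside the 1.5-fold line, and passed it (−0.64) with a pseudocount of 0.1. DBF4 overlaps exons of SLC25A40 and has a pseudogene named after it. CDC7 itself had log2 ratios of −0.13 and −0.21.

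The polymerase genes split by subunit. POLE, the catalytic subunit of polymerase epsilon, which copies the leading strand, was 45.7 and 54.6 TPM in 22RV1 and 19.6 and 22.5 TPM in PC3. POLE2, the second subunit of the same enzyme, was 9.97 and 7.08 TPM in 22RV1 and 23.6 and 14.4 TPM in PC3. POLE was thus higher with shDDX52 in both lines, with log2 ratios of 0.25 and 0.19, and POLE2 lower in both, with −0.44 and −0.67. The lines also differed in opposite directions, since POLE was 2.33-fold higher in 22RV1 and POLE2 was 2.36-fold higher in PC3. POLE2 spans chr14:49643555-49688422 on the minus strand. Its log2 ratio in PC3 was −0.55, short of 1.5-fold, when TPM were recomputed over nuclear protein-coding genes.

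POLD1 and POLD2, the catalytic and a small subunit of polymerase delta, which copies the lagging strand, were slightly higher in each shDDX52 library. POLD1 was 118 and 129.8 TPM in 22RV1 and 90.5 and 94.1 TPM in PC3. POLD2 was 457 and 496 TPM in 22RV1 and 249.6 and 269 TPM in PC3, the highest level of the polymerase group. None of these differences reached 1.2-fold, and that of POLD1 in 22RV1 turned to −0.0010 when centred on genes of similar GC content. POLA1, POLA2 and PRIM1, of the polymerase alpha and primase complex that starts each new strand, were lower in both lines, with log2 ratios from −0.48 to −0.082, and PRIM2 was lower in 22RV1 and higher in PC3, with −0.29 and 0.095.

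PCNA, the ring that holds polymerases on DNA, was one of the 4 genes at least 1.5-fold higher in PC3. It was 196 and 161 TPM in 22RV1 and 309 and 274 TPM in PC3, which is 82.3% and 88.5% of control. The clamp loader showed the reverse order of lines, since RFC2, RFC3, RFC4 and RFC5 were each at least 1.5-fold higher in 22RV1 shCON. RFC5 was 45.8 and 38.0 TPM in 22RV1 and 20.2 and 25.5 TPM in PC3, with log2 ratios of −0.26 and 0.32. Of the 6 genes of this group, 5 were lower with shDDX52 in 22RV1 and 4 in PC3, where 58.8% and 53.5% of all genes were. PCNA has 3 pseudogenes named after it in GENCODE 29, and the way reads shared with such copies were counted is not given in the sources used here.

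The genes that finish the lagging strand and coat single-stranded DNA differed among themselves. FEN1, the nuclease that removes primer flaps, was 105 and 88.9 TPM in 22RV1 and 96.0 and 84.3 TPM in PC3. LIG1, the ligase that seals the remaining nicks, was 118 and 132 TPM in 22RV1 and 30.1 and 36.8 TPM in PC3. FEN1 was nearly equal in the control libraries, while LIG1 was 3.91-fold higher in 22RV1, and with the hairpin FEN1 was lower and LIG1 higher in both lines. FEN1 shares exons with FADS2 on the same strand. The RPA trimer binds single-stranded DNA. RPA3, its smallest subunit, was 71.8 and 52.8 TPM in 22RV1 and 55.7 and 35.8 TPM in PC3, and RPA1, its largest, was 52.1 and 38.8 TPM in 22RV1 and 37.5 and 26.6 TPM in PC3. Both were thus at 64.2% to 74.4% of control in every pair. RPA2 was at 97.3% and 83.2%. RPA3 lies at chr7:7636518-7718607 on the minus strand and has exons overlapping those of UMAD1 on the opposite strand, and its PC3 log2 ratio was −0.50 with nuclear protein-coding scaling, short of 1.5-fold.

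CLSPN, which encodes Claspin, the fork protein that passes the stalled-fork signal to the kinase CHK1, was the single member at least 1.5-fold higher with the hairpin in 22RV1. It was 3.70 and 6.09 TPM in 22RV1 and 2.20 and 2.42 TPM in PC3. These levels are among the lowest of the list, and CLSPN overlaps the exons of an antisense gene. CLSPN spans chr1:35720218-35769967 on the minus strand. TIMELESS and TIPIN, which form a complex at the fork, were unequal in level. TIMELESS was 60.5 and 62.6 TPM in 22RV1 and 20.1 and 20.8 TPM in PC3, at 103% of control in each line. TIPIN was at 93.3% of control in 22RV1 and 78.9% in PC3.

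Of the genes that rebuild chromatin behind the fork, CHAF1A and CHAF1B encode the histone chaperone CAF-1, and UHRF1 guides the copying of DNA methylation. CHAF1A was 77.7 and 73.2 TPM in 22RV1 and 32.7 and 27.9 TPM in PC3. UHRF1 was 32.7 and 27.8 TPM in 22RV1 and 58.3 and 55.9 TPM in PC3. All 3 were lower in 22RV1 shDDX52, with log2 ratios from −0.31 to −0.085, and UHRF1 was 1.78-fold higher in the PC3 control, where both CAF-1 genes were at least 1.5-fold lower.

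Of the E2F factors, the activators E2F1 and E2F2 were slightly higher with the hairpin in both lines. E2F1 was 48.1 and 52.6 TPM in 22RV1 and 30.5 and 33.3 TPM in PC3, at 109% of control in each. E2F2 was 28.3 and 33.6 TPM in 22RV1 and 2.86 and 3.21 TPM in PC3. Centred on genes of similar GC content, the 22RV1 log2 ratio was 0.0053 for E2F1 and 0.20 for E2F2. With a 9.90-fold higher level in 22RV1 shCON, E2F2 showed the largest difference between the control libraries of all members. E2F8, a repressor of the family, had log2 ratios of −0.30 and 0.097.

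DTL, the substrate receptor that sends CDT1 for degradation in S phase, was 18.4 and 11.1 TPM in 22RV1 and 8.85 and 11.1 TPM in PC3. It was at 60.7% of control in 22RV1 and at 125% in PC3. The shDDX52 libraries of the lines were thus level, while the control libraries were 2.07-fold apart. DTL spans chr1:212035553-212107400 on the plus strand. After centring on genes of similar GC content its 22RV1 log2 ratio was −0.49, short of 1.5-fold.

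Words bound by E2F factors were counted in the promoters. Promoter sequence was not used to choose the genes, but many are known to be transcribed by E2F factors. The share of words is therefore not independent of the choice. RefSeq windows (GRCh38.p14) from 250 bases before to 50 bases after each annotated start were found for 46 of the 53 members. They were searched on both strands for 4 words of 8 letters that E2F factors are known to bind, TTTCCCGC, TTTGGCGC, TTTGCCGC and TTTCGCGC, and overlapping words were counted separately. At least 1 word lay in a window of 25 of the 46 members, or 54.3%, against 3.99% of 27305 genes with a window and 6.53% of the 11338 genes among them with at least 1 TPM in any library. Of the other pathway genes described at the end, 11 of 49 with a window held one, or 22.4%. A match is a description and not a binding site. The words are printed in capitals for the members past 1.5-fold with the hairpin that hold one, and for E2F2, LIG1, MCM7 and PCNA, which differed between the lines, in the gene's own direction.
CDC6 (chr17:40287870-40287898, plus strand): gctgtggccattcggaTTTGGCGCgagcg
DTL (chr1:212035724-212035763, plus strand): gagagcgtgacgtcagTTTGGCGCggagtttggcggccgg
CLSPN (chr1:35769960-35769998, minus strand): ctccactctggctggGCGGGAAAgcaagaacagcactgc
POLE2 (chr14:49688196-49688234, minus strand): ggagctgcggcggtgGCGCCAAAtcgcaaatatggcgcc
E2F2 (chr1:23531252-23531291, minus strand): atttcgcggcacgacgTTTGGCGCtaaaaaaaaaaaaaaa
LIG1 (chr19:48170435-48170474, minus strand): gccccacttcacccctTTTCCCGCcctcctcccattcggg
MCM7 (chr7:100101383-100101422, minus strand): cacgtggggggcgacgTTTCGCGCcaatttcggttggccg
PCNA (chr20:5126658-5126697, minus strand): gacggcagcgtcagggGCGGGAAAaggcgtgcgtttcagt

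The word begins 8 bases before the start in DTL and 9 bases before it in MCM7 (at the printed word), but 114 bases before it in LIG1. In CLSPN, POLE2 and PCNA the word is on the other strand, so its reverse complement is printed. E2F1, which is known to be transcribed by E2F factors itself, has 2 such words in the 250 bases before its start, shown here as the example of a whole upstream region at chr20:33686386-33686635 on the minus strand.
E2F1: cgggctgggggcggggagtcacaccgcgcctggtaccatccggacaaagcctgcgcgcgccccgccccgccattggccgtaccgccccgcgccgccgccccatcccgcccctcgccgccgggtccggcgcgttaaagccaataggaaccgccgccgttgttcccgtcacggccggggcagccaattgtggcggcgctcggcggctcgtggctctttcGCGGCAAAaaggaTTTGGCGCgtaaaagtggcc

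The change was then set beside the presence of a word, with no test. The 25 members with a word had median log2 ratios of −0.11 in 22RV1, with 19 lower, and −0.065 in PC3, with 14 lower. The 21 members with a window but no word had medians of −0.26 in 22RV1, with 16 lower, and −0.058 in PC3, with 12 lower. Between the control libraries the medians were −0.55 with a word and −0.63 without, both toward lower levels in PC3. CDC6 and DTL, lower in 22RV1 with the hairpin, hold the same word, TTTGGCGC, as E2F1 and E2F2, which were higher. On one strand or the other, this word also lay in GINS1, GMNN, MCM6, POLA1, POLE2 and TIPIN, which were lower in 22RV1. It lay in POLE too, which was higher there.

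The change in 22RV1 went with the GC content of the transcripts. Among the members, the longest coding transcript of GENCODE 29 held from 37.7% to 65.0% GC, with a median of 45.9%. Of the 27 members at or below that median, 25 were lower in 22RV1 shDDX52, with a median log2 ratio of −0.28, and of the 26 members above it 16 were lower, with a median of −0.060. Spearman's rho between GC content and log2 ratio was 0.47 across the 53 members and 0.35 across 11870 protein-coding genes tested, where 74.3% of genes at or below 45.9% GC and 51.1% of the others were lower. In PC3 the same correlations were 0.19 and −0.027. POLD1 (65.0% GC), E2F1 (62.5%), POLD2 (59.1%), E2F2 (57.5%), POLE (56.4%) and LIG1 (56.3%) were higher with the hairpin in both lines, while POLE2 (43.7%), ORC5 (41.8%) and PRIM1 (40.1%) were lower in both. Other members went against this order. Of the 26 members above the median GC content, 11 were lower in both lines, among them CDT1 (64.9%), CHAF1A (57.6%), UHRF1 (54.6%), POLA2 (54.5%) and FEN1 (53.7%), and of the 27 others 2 were higher in both, ORC4 (37.7%) and CLSPN (44.8%). The part of GC content in these differences was not tested.

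**Figure D4:**
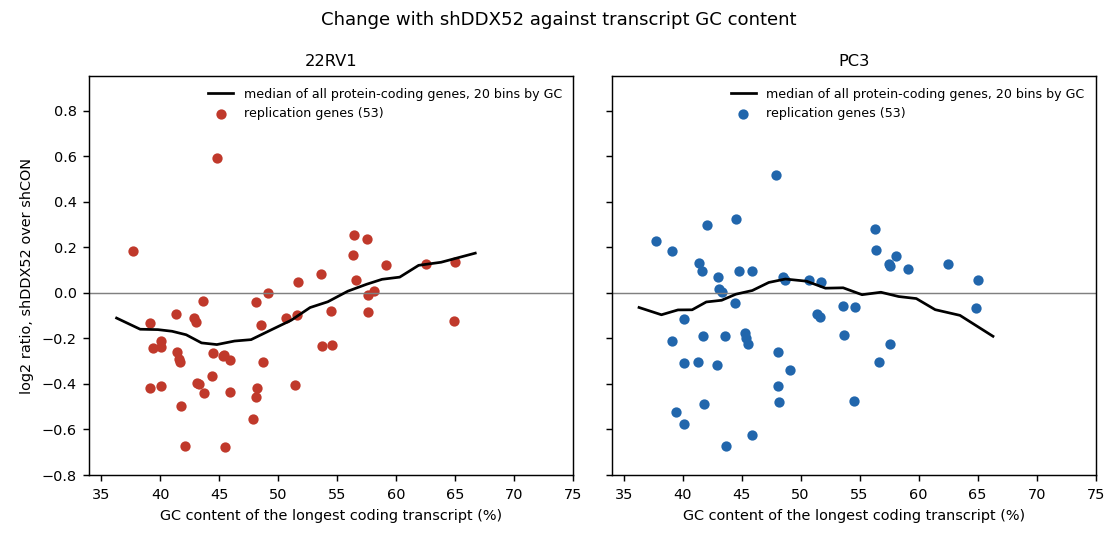
The log2 ratio of shDDX52 over shCON against the GC content (%) of the longest coding transcript, for 22RV1 at left and PC3 at right, with 1 point for each of the 53 replication genes. The black line joins the medians of all protein-coding genes tested in 20 bins by GC content. In 22RV1 most replication genes below 50% GC lie under 0 and the line climbs above 0 toward high GC content, while in PC3 the line stays near 0 over most of the range.

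GC content also went with the difference between the control libraries. Of the 27 members at or below 45.9% GC, 18 were lower in PC3 shCON than in 22RV1 shCON, with a median log2 ratio of −0.24, and of the 26 others 25 were lower, with a median of −1.05. Among protein-coding genes tested, 41.1% and 57.3% were lower in PC3, with medians of 0.18 and −0.21. The members were thus lower in PC3 on either side of that GC content.

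A further 61 genes of the replication pathway were listed, among them other initiation factors, topoisomerases, histone chaperones, E2F partners and checkpoint genes, and 59 passed the minimum of 1 TPM in each line. With shDDX52, 58.8% of all genes tested were lower in 22RV1 and 53.5% in PC3, with median log2 ratios of −0.076 and −0.036. Of the 59 pathway genes, 41 (69.5%) were lower in 22RV1 and 38 (64.4%) in PC3, with medians of −0.073 and −0.21. At least 1.5-fold lower were 1 gene in 22RV1 (CDC25A) and 2 in PC3 (TOP2B and ATR), and at least 1.5-fold higher were 0 in 22RV1 and 2 in PC3 (CDK2 and E2F7). ATR, a kinase of the fork checkpoint, and E2F7, a repressor, stayed under 5 TPM and are named after their values were seen. None was at least 1.5-fold changed in the same direction in both lines. The shares of these genes past 1.5-fold, at most 3.39%, were below the backgrounds given above.

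Among the pathway genes that reached 5 TPM in a line, the lowest by log2 ratio in 22RV1 was CDC25A, the phosphatase that activates CDK2, at 21.1 and 11.9 TPM, against 10.02 and 10.6 TPM in PC3. DONSON, an initiation factor that helps GINS to load, was 15.9 and 10.3 TPM in 22RV1, and RAD9A, of the checkpoint clamp, was 45.2 and 31.1 TPM. The highest log2 ratios there were those of the ubiquitin ligase scaffold CUL4B (0.45), the histone chaperone ASF1B (0.39) and the checkpoint clamp loader RAD17 (0.32). In PC3 the lowest was TOP2B, a type II topoisomerase, at 28.2 and 14.6 TPM, followed by RNASEH2B (−0.54), of ribonuclease H2, and ATRIP (−0.53), the partner of ATR. The highest in PC3 was CDK2, the S phase kinase, at 31.2 and 54.0 TPM, where 22RV1 had 97.7 and 96.1 TPM. The kinase WEE1 (0.54), which restrains CDK2, and the activator E2F3 (0.29) followed.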

How the data were processed

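Total RNA of 22RV1 and PC3 cells was sequenced from TruSeq libraries, 1 for each of the 4 conditions. The submitters' processing notes name CASAVA, HISAT2 and hg19, and reads were mapped on an online platform. The quantification program, annotation release, strand setting and filters are not given in the sources used here. The authors deposited TPM values for each Ensembl gene, which summed to between 984448 and 990860 per library. TPM keeps no depth, so precision is unknown.

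Identifiers were paired with symbols through a table of gene names. GENCODE 29 (GRCh38) gave positions, gene types and transcript GC content for 58453 identifiers, so positions are not those of the authors' build. RefSeq promoter windows were of GRCh38.p14. The log2 ratio used a pseudocount of 1, and a gene entered a comparison where one of its libraries reached 1 TPM. A fold of 1.5 on that scale was counted as changed, beside the share of all genes. The computation of counts and medians was run on data with planted changes. That run checked the arithmetic only. It cannot decide how reliable the measured changes are, because the error of a single library is unknown.

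The members, lists and rules were chosen with earlier results of these data known. Genes described in full, 27 in all, were the 5 members with the lowest and the 5 with the highest log2 ratio in each of 3 comparisons among those with at least 5 TPM in either library, members at least 1.5-fold changed in the same direction in both lines (there were 0), and the most abundant member of each of 9 roles. Other members named illustrate their role group and were chosen after their values were seen. Of the 53 members, 23 have exons overlapping another gene and 7 a pseudogene named after them, and their values are uncertain to that extent. Of the other pathway genes, the 3 lowest and 3 highest of each line were named. Some marker genes are not reported here. Alternatives covered the pseudocount, filter, scaling and centring. Computation used pandas 2.3.3, scipy 1.17.1 and numpy 2.4.6 under Python 3.11.15, and plots matplotlib 3.10.9.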

Additional observations from a re-analysis of the deposited data

Results flagged for a closer look

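With shDDX52, 6 genes with at least 5 TPM in any library moved by at least 1.2-fold in opposite directions in the cell lines, of which 2 are among the 53 members and 4 among the other pathway genes. The share of all genes passing this rule was not computed, so the count cannot be read as a trait of these lists. By sign alone, 27.4% of all genes tested in both lines were lower in 22RV1 and higher in PC3, and 21.4% the reverse. With 1 library per condition, these differences between the lines were not tested. The log2 ratio of GINS4 was −0.56 in 22RV1 but 0.52 in PC3, and that of DTL was −0.67 and 0.30. E2F3, an activator of the E2F family, had −0.42 and 0.29. The reverse was seen for MCM8, a relative of the MCM ring genes with a part in DNA repair, with 0.58 and −0.44, for RAD17, which loads the checkpoint clamp, with 0.32 and −0.30, and for RNASEH2C, a subunit of the ribonuclease H2 that removes ribonucleotides from DNA, with 0.28 and −0.33. Below 5 TPM in every library, E2F7 had −0.30 in 22RV1 and 0.85 in PC3.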

How the results depend on the processing

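The 9 counts and medians of the members were recomputed under 7 alternatives, of which the centring on transcript GC content was chosen after seeing the data. Of the 63 values, 57 stayed the same within 0.1 (log2) or 1.5 times, 5 moved and 1 reversed. The median in PC3 reversed, from −0.061 to 0.067, when TPM were recomputed over nuclear protein-coding genes, which also gave 0 members at least 1.5-fold lower and 1 higher (GINS4), and moved the median of all genes in PC3 from −0.036 to 0.087. A pseudocount of 0.1 gave 4 members at least 1.5-fold lower in PC3. Centring on GC content gave a median of −0.049 and 0 members at least 1.5-fold lower in 22RV1. The cause of these changes was not tested, except that the pseudocount acts most on low values. Of 563 values of single genes, 499 stayed the same, 45 moved, 11 passed 1.5-fold and 8 fell short of it. No paired analysis was possible because there is a single library per condition, so no replicate could be left out either.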

Other observations

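Other promoter words were counted in the same windows of the 46 members. The CCAAT box, the letters CCAAT on either strand, lay in a window of 28 members, or 60.9%, against 39.7% of all genes with a window, 42.8% of those with at least 1 TPM in any library and 55.1% of the other pathway genes. The E-box CACGTG, a word that c-Myc is known to bind, lay in 8 members, or 17.4%, among them MCM2, MCM7, FEN1 and RPA1, against 8.77% of all genes and 12.4% of the expressed genes, and 16.3% of the other pathway genes. The letters TTTGAA, known as the CHR element of genes transcribed in G2 and M phase, lay in a window of 1 member, DBF4, or 2.17%, against 18.2% of all genes, 13.1% of the expressed genes and 18.4% of the other pathway genes. These are counts of letters, and no binding was measured.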
